A study of Mirounga angustirostris with 8 samples.

Results

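Cholesterol synthesis, the sensing of sterols and the movement of sterols between membranes were followed in NES muscle through 8 genes chosen by symbol: SREBF1, SREBF2, INSIG1, HMGCS1, FDFT1, SQLE, OSBPL10 and OSBPL1A. Of these, 7 were read from a table of 24341 genes, and all 7 passed the filter on low counts that left 14314 genes to test. INSIG1 was not analysed here. RNA came from longissimus dorsi biopsies of wild adult female seals, with 4 post-molt libraries (seals 4448, 5572, 9678 and X410, late molt, sampled on average 34 days after the early biopsies of the study) and 4 pre-molt libraries (seals 5572, 5842, 6762 and C497, early molt, at most 5 days after arrival on the beach). Both groups were sedated animals that fast and move little while ashore, so each seal had already begun its fast when the pre-molt biopsy was taken. Seal 5572 was the only 1 of 7 seals with a library at both times. Molt stage, time on land and length of fast changed together and cannot be told apart.

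Cells make cholesterol from acetyl-CoA through the mevalonate pathway. When sterols in the endoplasmic reticulum run low, the escort protein SCAP carries the SREBP precursors to the Golgi, where proteases free a fragment that enters the nucleus and switches on the synthesis enzymes and the LDL receptor. When sterols are plentiful, INSIG proteins hold SCAP and its cargo back. Oxysterol-binding proteins and their relatives move sterols and phospholipids across the narrow gaps where the endoplasmic reticulum touches other membranes.

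Values below are CPM, the counts of a gene set against the library's total, scaled between libraries with TMM factors. Those of post-molt muscle are listed for seals 4448, 5572, 9678 and X410 and those of pre-molt muscle for seals 5572, 5842, 6762 and C497. Fold changes are log2, post-molt over pre-molt, with a standard error (SE), and tests are edgeR quasi-likelihood tests adjusted by Benjamini-Hochberg over all genes tested. CPM take no account of gene length, so levels are not compared between genes. Library totals ran between 30770425 and 61220136 counts. Post-molt 9678 stood apart, with 546 genes at 0 that had 20 or more counts in each of the other 7 libraries. That number was 164 in post-molt 4448, 142 in pre-molt 5842 and 0 to 24 in the other 5.

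None of the 7 genes passed an edgeR adjusted p under 0.05, against 0.349% of all genes tested. The largest differences were in OSBPL10 and SREBF1, both with higher means post-molt. These were the only 2 with an unadjusted p under 0.05, both in the higher direction, where 5.20% of all genes stood, and 0 were lower at that level, where 6.22% stood. OSBPL10 alone had groups that did not overlap (1 higher, 0 lower), as did 9.15% of all genes, 4.04% higher and 5.11% lower. DESeq2 called OSBPL10 higher and none of the 5 others to which it gave an adjusted p, against 6.44% of genes with an adjusted p called, 3.31% higher and 3.13% lower. It gave SQLE no adjusted p. The study's own DESeq2 comparison of these libraries had already named OSBPL10 as upregulated, so this call repeats that result on the same data. With limma-voom, 0 of the 7 passed, against 0.384% of genes called higher and 0.272% called lower.

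**Figure D1:**
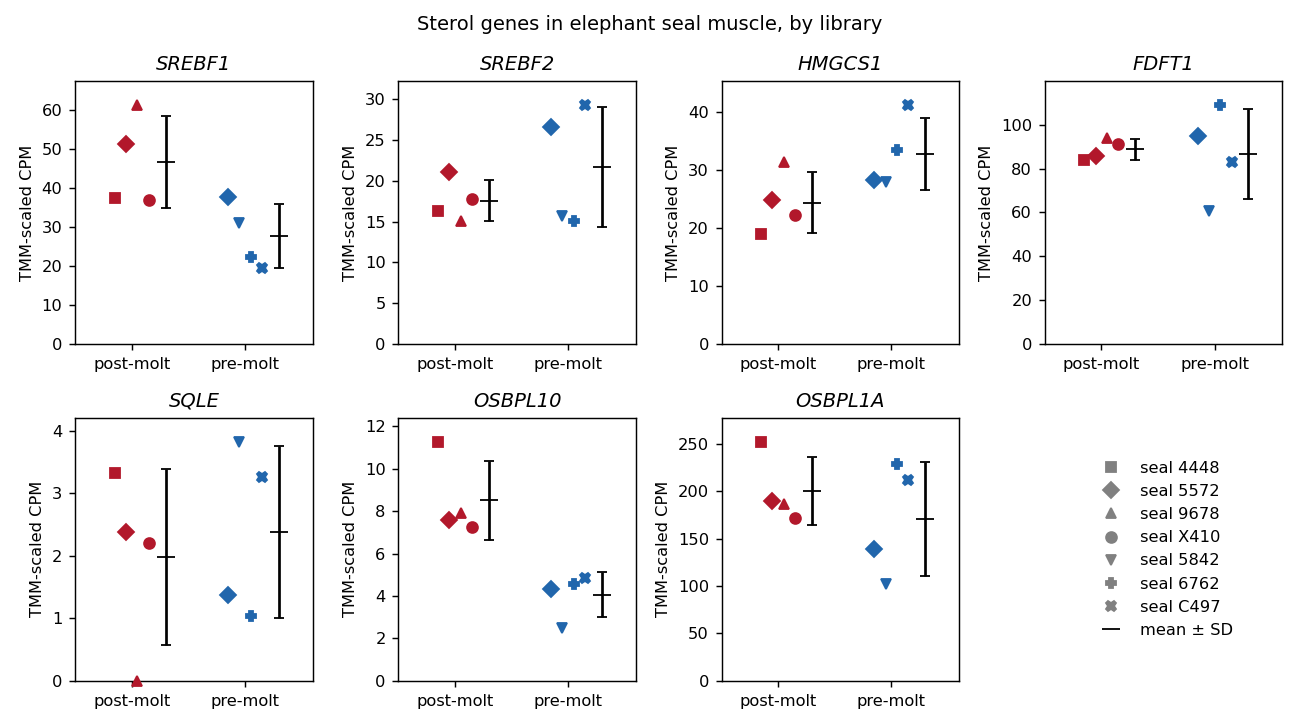
TMM-scaled CPM (vertical axes, from 0) of the 7 genes in each library, post-molt in red and pre-molt in blue, 1 symbol per seal, with the mean and SD of 4 libraries in black. OSBPL10 is the only gene in which the 4 post-molt libraries (7.25 to 11.3 CPM) all sit above the 4 pre-molt libraries (2.51 to 4.85 CPM), and SQLE has 1 post-molt library at 0.

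SREBF1 codes for SREBP-1, the SREBP best known for driving fatty acid synthesis genes. It was at 37.5, 51.2, 61.3 and 36.8 CPM in post-molt muscle, against 37.7, 30.9, 22.4 and 19.6 CPM in pre-molt muscle. The groups met at their edges, with post-molt 4448 and X410 just under pre-molt 5572. Means were 46.7 ± 11.7 CPM post-molt and 27.7 ± 8.22 CPM pre-molt (SD, n = 4 each), with a log2 fold change of 0.76 ± 0.26 (95% interval 0.20 to 1.31, unadjusted p = 0.0116, edgeR adjusted p = 0.233). DESeq2 gave a log2 fold change of 0.76 ± 0.28 and an adjusted p of 0.0818. In seal 5572 the difference was 0.44, and with 1 library left out at a time the edgeR fold change lay between 0.60 and 0.94.

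SREBF2 codes for SREBP-2, the form that acts mainly on cholesterol synthesis and LDL uptake. Its CPM were 16.3, 21.0, 15.1 and 17.8 post-molt, against 26.6, 15.7, 15.1 and 29.3 pre-molt. The pre-molt libraries split into 5572 and C497, above all post-molt libraries, and 5842 and 6762, at the level of the lowest post-molt library. The log2 fold change was -0.30 ± 0.27 (95% interval -0.88 to 0.28, edgeR adjusted p = 0.767), and the difference in seal 5572 was -0.34.

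The ratio of SREBF1 to SREBF2 within a library does not depend on how libraries are scaled. SREBF1 had 2.30, 2.43, 4.05 and 2.07 counts per count of SREBF2 in post-molt muscle, against 1.41, 1.96, 1.48 and 0.671 in pre-molt muscle. All 4 post-molt ratios lay above all 4 pre-molt ratios, by a narrow margin between post-molt X410 and pre-molt 5842. The share of other gene pairs that separate as fully was not computed, and 9.15% of single genes did not overlap between the groups. The fold changes of SREBF1 and SREBF2 had opposite signs, and neither gene passed in edgeR. On the log2 scale the mean ratio was 1.39 ± 0.43 post-molt and 0.37 ± 0.66 pre-molt, a difference of 1.02 (exact permutation test, two-sided p = 0.0286, which is the smallest p that 4 against 4 libraries can give, and 0.0286 when adjusted over the 2 ratios tested). The difference shrank to 0.71 without pre-molt C497 and to 0.81 without post-molt 9678. Both ratios gave the same p, so the adjustment changed nothing. SREBF1 already differed before adjustment in these same libraries (edgeR unadjusted p = 0.0116, adjusted p = 0.233). The ratio is therefore a description and adds no support beyond the genes' own tests.

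The genes of the sensing step, SREBF1 and SREBF2 counted again among them, showed no call. Of 11 genes listed for it, 9 were tested, and edgeR and DESeq2 each called 0. The 2 that reached an unadjusted p under 0.05 (SREBF1 and NR1H3) were both higher, where 5.20% of all genes stood. The median log2 fold change was 0.31, beside -0.04 over all genes tested, and 5 of 9 were above 0, as were 46.4% of all genes. NR1H3, the oxysterol receptor LXR alpha and a known activator of SREBF1 transcription in mouse liver, was at 6.45, 10.4, 8.52 and 8.90 CPM post-molt, against 5.80, 2.29, 4.19 and 5.32 CPM pre-molt. Its groups did not overlap, and its log2 fold change was 0.96 ± 0.38 (edgeR adjusted p = 0.326, DESeq2 adjusted p = 0.0903). The site-1 protease gene MBTPS1, whose product makes the first cut in SREBP, spanned 28.9 to 32.3 CPM post-molt and 20.5 to 28.8 CPM pre-molt, without overlap (0.31 ± 0.19, edgeR adjusted p = 0.606). Like NR1H3 and MBTPS1, 4.04% of all genes tested were higher post-molt without overlap. NR1H2, which codes for LXR beta, overlapped between groups (-0.30 ± 0.20, edgeR adjusted p = 0.661).

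**Figure D2:**
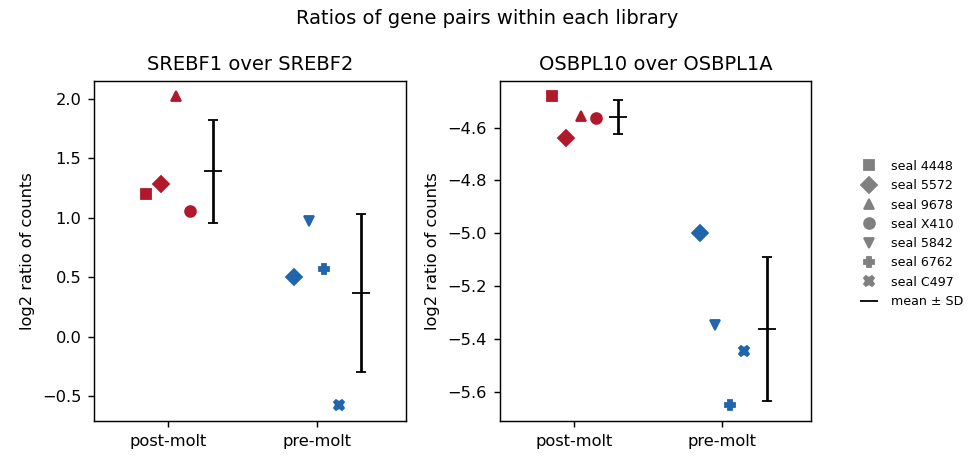
Log2 ratio of counts of SREBF1 over SREBF2 (left) and of OSBPL10 over OSBPL1A (right) in each library, post-molt in red and pre-molt in blue, with the mean and SD of 4 libraries in black; the axes do not start at 0. The post-molt ratios lie above every pre-molt ratio in both panels, with a difference of means of 1.02 at left and 0.80 at right.

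HMGCS1, FDFT1 and SQLE stand at successive points of the cholesterol pathway, and none of the 3 had a difference that passed. HMGCS1, the cytosolic enzyme that makes HMG-CoA, was at 19.0, 24.8, 31.3 and 22.2 CPM in post-molt muscle, against 28.2, 27.9, 33.4 and 41.2 CPM in pre-molt muscle. Of the post-molt libraries, 9678 alone reached the pre-molt range. Means were 24.3 ± 5.25 CPM post-molt and 32.7 ± 6.21 CPM pre-molt, with a log2 fold change of -0.43 ± 0.22 (95% interval -0.91 to 0.06, edgeR adjusted p = 0.530). Leaving out post-molt 9678 gave -0.57, and the difference in seal 5572 was -0.19.

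FDFT1, squalene synthase, commits farnesyl units to sterols. It was at 84.0, 85.7, 93.9 and 91.4 CPM post-molt, against 94.9, 60.5, 109 and 82.8 CPM pre-molt. The post-molt libraries lay within the pre-molt range, and the spread was 4.67 CPM (SD) post-molt against 20.5 CPM pre-molt. The difference in means was small, at a log2 fold change of 0.03 ± 0.20, and the 95% interval of -0.40 to 0.47 leaves room for a modest difference either way (edgeR adjusted p = 0.977). Its sign turned to -0.083 without pre-molt 5842.

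SQLE, squalene epoxidase, brings in the oxygen that becomes the hydroxyl group of cholesterol and is a rate-limiting step. It was sparse, with 232, 86, 0 and 111 counts in post-molt libraries, against 58, 122, 56 and 194 counts in pre-molt libraries. In CPM these were 3.33, 2.39, 0 and 2.20 post-molt, against 1.38, 3.83, 1.03 and 3.26 pre-molt. The 0 was in 9678, the library with most genes missing, and at its depth a count of 0 allows up to 3 counts, or 0.0968 CPM (counting error only). The log2 fold change of -0.26 ± 1.08 had a 95% interval of -2.61 to 2.09 (edgeR adjusted p = 0.965), so no difference was detectable at this depth. It was 0.16 without post-molt 9678 and 0.09 without pre-molt 5842, and in seal 5572 it was 0.79.

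Over the whole route to cholesterol, 20 enzymes were listed, and IDI1 and CYP51A1 were not analysed here. Of the 18 tested, edgeR called 0, and DESeq2 called 0 of the 16 to which it gave an adjusted p. Before adjustment 1 enzyme was lower and 0 were higher at p under 0.05 in edgeR, against 6.22% lower and 5.20% higher over all genes. Log2 fold changes ran between -0.95 and 0.53 with a median of -0.17, beside -0.04 over all genes. Of the 18, 4 were above 0, against 46.4% of all genes. The single enzyme with an unadjusted p under 0.05 was FDPS, which makes farnesyl diphosphate, at 21.6 to 26.3 CPM post-molt, against 26.0 to 42.2 CPM pre-molt. Its groups overlapped only through post-molt X410 and pre-molt C497 (-0.48 ± 0.21, edgeR adjusted p = 0.390). The sterol reductase TM7SF2 (1.45 to 5.39 CPM post-molt, 2.82 to 10.7 CPM pre-molt, -0.95 ± 0.53, edgeR adjusted p = 0.562) and HSD17B7, which reduces a sterol ketone (20.1 to 32.9 CPM post-molt, 24.5 to 38.0 CPM pre-molt, -0.34 ± 0.22, adjusted p = 0.650), also overlapped between the groups.

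**Figure D3:**
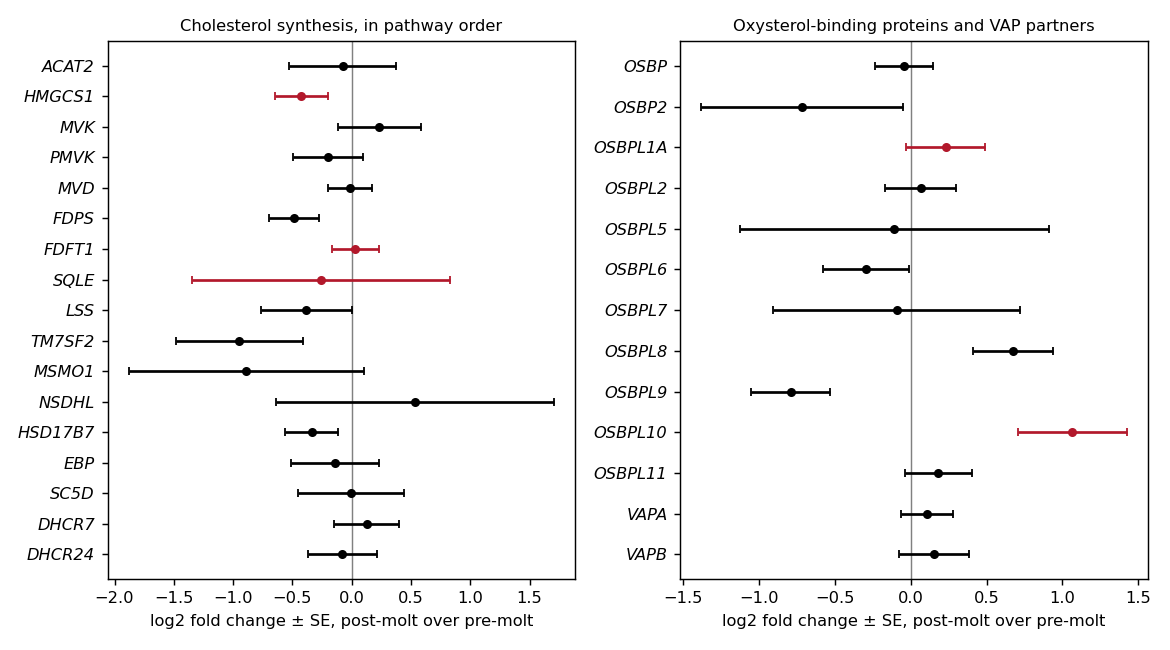
Log2 fold change, post-molt over pre-molt, with its SE for 17 of the 18 cholesterol synthesis enzymes tested, in pathway order (left), and 13 genes of the oxysterol-binding protein family and its VAP membrane anchors (right), the genes HMGCS1, FDFT1, SQLE, OSBPL1A and OSBPL10 in red. At left FDPS (-0.48) and HMGCS1 (-0.43) lie farthest from 0 relative to their SE, with wide bars for SQLE, MSMO1 and NSDHL, while OSBPL10 (1.07), OSBPL8 (0.67) and OSBPL9 (-0.79) lie farthest from 0 at right relative to their SE.

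OSBPL10 codes for ORP10, a lipid-transfer protein of contact sites that pairs with ORP9 in human cells. It was at 11.3, 7.61, 7.91 and 7.25 CPM in post-molt muscle (787, 274, 245 and 366 counts), against 4.33, 2.51, 4.56 and 4.85 CPM in pre-molt muscle (182, 80, 247 and 289 counts). Each post-molt library was above each pre-molt library, with 4448 the highest and 5842 the lowest of the 8. Means were 8.51 ± 1.86 CPM post-molt and 4.06 ± 1.06 CPM pre-molt, a 2.09-fold difference. The log2 fold change was 1.07 ± 0.36 (95% interval 0.29 to 1.85, unadjusted p = 0.0114), and the edgeR adjusted p of 0.233 did not pass.

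DESeq2 gave OSBPL10 nearly the same fold change, 1.08 ± 0.34, with an adjusted p of 0.0299, the lowest of the 18 alternatives set for this gene, which ran up to 0.520. Over DESeq2 fits that each dropped 1 library, the fold change stayed between 0.91 and 1.18, while the call held in 1 of 8 fits, the fit without pre-molt C497. The adjusted p in those fits was 0.0372 to 0.183. In seal 5572 OSBPL10 was higher post-molt by 0.81 on the log2 scale. Without post-molt 4448 the edgeR fold change was 0.90, and without pre-molt 5842 it was 0.92.

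OSBPL1A codes for ORP1, whose long form senses cholesterol on late endosomes. It was at 252, 189, 186 and 172 CPM post-molt, against 139, 102, 229 and 211 CPM pre-molt. Pre-molt 5572 and 5842 were below all post-molt libraries, whereas 6762 and C497 lay within their range (0.23 ± 0.26, 95% interval -0.33 to 0.79, edgeR adjusted p = 0.839). Pre-molt 5842 was the lowest library, as it was for OSBPL10 and FDFT1. In seal 5572 the difference was 0.45.

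Set against OSBPL1A in the same library, OSBPL10 varied little among the post-molt seals. Its counts were 4.47, 4.02, 4.25 and 4.23% of those of OSBPL1A post-molt, against 3.12, 2.46, 1.99 and 2.30% pre-molt. The post-molt ratios lay within a narrow band above every pre-molt ratio, and seal 5572 held the lowest of the post-molt and the highest of the pre-molt ratios. On the log2 scale the means were -4.56 ± 0.06 post-molt and -5.36 ± 0.27 pre-molt, a difference of 0.80 (exact permutation test, two-sided p = 0.0286, the smallest possible, and 0.0286 adjusted over the 2 ratios). OSBPL10 was already known to be higher post-molt, without overlap, in these same libraries. The ratio is therefore a description and adds no support beyond the gene's own test (edgeR adjusted p = 0.233). With 1 library left out at a time the difference was 0.70 to 0.92.

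**Figure D4:**
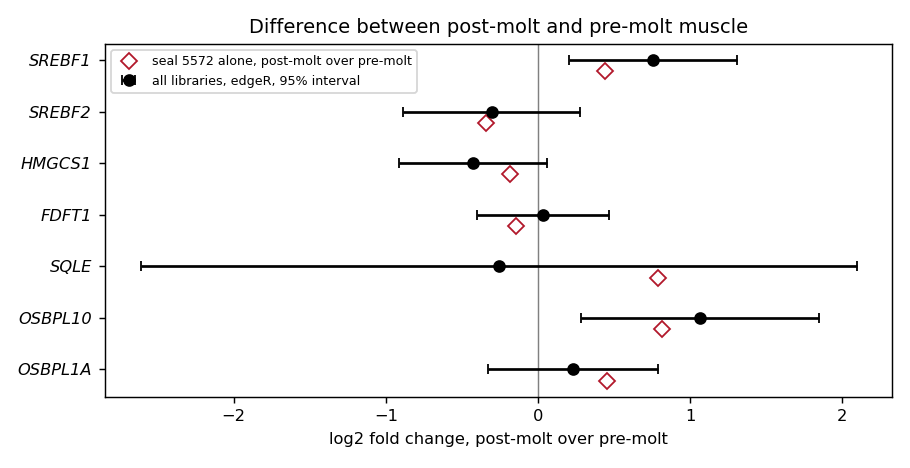
Log2 fold change, post-molt over pre-molt, of the 7 genes from the edgeR fit with its 95% interval (black), and the difference between the 2 libraries of seal 5572 alone (open red diamonds, no error). The intervals of SREBF1 (0.20 to 1.31) and OSBPL10 (0.29 to 1.85) lie above 0 before adjustment, and seal 5572 has the opposite sign for FDFT1 and SQLE.

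Across the oxysterol-binding family and its VAP anchors, 13 of 14 listed genes were tested, and OSBPL3 was below the filter. EdgeR called 0, with OSBPL10 and OSBPL8 higher and OSBPL9 lower before adjustment (p under 0.05), and DESeq2 called OSBPL10 alone of the 10 to which it gave an adjusted p. Over all genes, 5.20% were higher and 6.22% lower before adjustment, and DESeq2 called 3.31% higher. The median log2 fold change was 0.07, and 7 of 13 were above 0, against 46.4% of all genes. OSBPL8, a relative that moves phosphatidylserine to the plasma membrane, was at 27.8, 35.4, 50.5 and 37.7 CPM post-molt, against 13.9, 27.4, 26.0 and 27.6 CPM pre-molt. Its groups came within a fraction of a CPM of each other without overlapping (0.67 ± 0.26, edgeR adjusted p = 0.323, DESeq2 adjusted p = 0.172). Over all genes tested, 4.04% were higher post-molt without overlap. OSBPL9, which codes for ORP9, the partner of ORP10, had the opposite sign, with 62.5, 53.2, 49.5 and 75.0 CPM post-molt, against 92.6, 61.4, 149 and 112 CPM pre-molt. Pre-molt 5842 fell among the post-molt libraries, and the fold change of -0.79 ± 0.26 did not pass (edgeR adjusted p = 0.216, DESeq2 adjusted p = 0.0597). OSBP2 was sparse and overlapped between the groups (-0.72 ± 0.66, edgeR adjusted p = 0.788).

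The 5 genes whose profile over the 8 libraries came closest to that of OSBPL10 were LRRC8A, NFE2L1, CD99L2, RIC8B and AKAP1. Likeness was the root mean square difference of log2 CPM after subtracting each gene's mean, and it was 0.13, 0.14, 0.15, 0.15 and 0.19 log2 units. A gene that differs between the groups as OSBPL10 does will score well by construction, so these values are a description. All 5 were highest in post-molt 4448 and lowest in pre-molt 5842. LRRC8A codes for a subunit of the volume-regulated anion channel (14.8 ± 3.96 CPM post-molt, 6.85 ± 1.40 CPM pre-molt, 1.11 ± 0.29, edgeR adjusted p = 0.113). NFE2L1 codes for a transcription factor anchored in the endoplasmic reticulum (861 ± 115 CPM post-molt, 383 ± 110 CPM pre-molt, 1.17 ± 0.24, adjusted p = 0.060). AKAP1, which tethers protein kinase A to mitochondria, was the only one to pass in edgeR (194 ± 28.0 CPM post-molt, 85.5 ± 13.7 CPM pre-molt, 1.19 ± 0.19, adjusted p = 0.0299), and it lost that call in 5 of 8 fits that left out 1 library, with adjusted p up to 0.102. CD99L2, a cell-surface protein (1.14 ± 0.25, edgeR adjusted p = 0.0679), and RIC8B, a chaperone of G proteins (0.87 ± 0.32, adjusted p = 0.290), also had groups that did not overlap. Of all genes tested, 4.04% were higher post-molt without overlap. DESeq2 called LRRC8A, NFE2L1, CD99L2 and AKAP1 higher, and RIC8B had a DESeq2 adjusted p of 0.0832. Of all genes with a DESeq2 adjusted p, 3.31% were called higher. The study had already named NFE2L1 as upregulated in these libraries, so that call repeats its result.

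**Figure D5:**
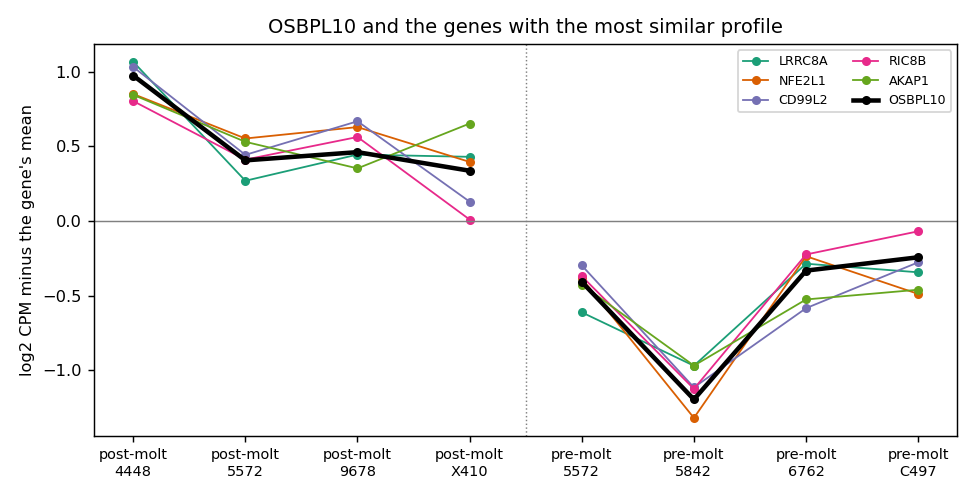
Log2 CPM minus the gene's mean over 8 libraries (vertical axis) for OSBPL10 (thick black) and the 5 genes with the smallest root mean square difference from it, post-molt libraries left of the dotted line and pre-molt libraries right of it. All 6 genes peak in post-molt 4448 and are lowest in pre-molt 5842; lines join libraries of a group for legibility, and their order carries no meaning.

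Among genes of sterol uptake, storage and efflux, 17 of 18 listed were tested and none was called. EdgeR and DESeq2 called 0, and before adjustment STARD4 alone, which was lower, reached p under 0.05 in edgeR. Over all genes, 6.22% were lower at that level. The median log2 fold change was -0.15, and 7 of 17 were above 0, against 46.4% of all genes. STARD4, a soluble sterol carrier and known SREBP-2 target, was at 1.22, 2.56, 2.61 and 3.69 CPM post-molt, against 2.76, 5.39, 6.41 and 7.46 CPM pre-molt. Only pre-molt 5572 lay within the post-molt range (-1.13 ± 0.51, edgeR adjusted p = 0.429). The lysosomal cholesterol carrier NPC2 (37.2 to 60.0 CPM post-molt, 58.1 to 79.9 CPM pre-molt, -0.44 ± 0.20, edgeR adjusted p = 0.439) and the lipoprotein gene APOE (14.6 to 29.4 CPM post-molt, 23.5 to 61.9 CPM pre-molt, -0.69 ± 0.32, adjusted p = 0.440) overlapped between the groups. Without pre-molt 5842 the fold change of APOE was -0.29.

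SREBF1 was set beside 12 genes known as targets of SREBP-1, of which 10 passed the filter and ELOVL6 and PNPLA3 did not. EdgeR called 0, and before adjustment 1 was lower and 0 were higher at p under 0.05, while DESeq2 called 1 lower. Over all genes, 6.22% were lower and 5.20% higher before adjustment, and DESeq2 called 3.13% lower. The median log2 fold change was -0.16, and 3 of 10 were above 0, against 46.4% of all genes. The gene DESeq2 called was GPAM, the mitochondrial acyltransferase that opens triglyceride synthesis, at 27.1, 30.3, 34.2 and 26.1 CPM post-molt, against 45.6, 42.8, 79.1 and 54.3 CPM pre-molt. All post-molt libraries were below all pre-molt libraries, as in 5.11% of all genes tested (-0.91 ± 0.23, edgeR adjusted p = 0.0924, DESeq2 adjusted p = 0.00606). FASN, fatty acid synthase, was at 73.5 ± 23.5 CPM post-molt and 108 ± 36.2 CPM pre-molt (-0.56 ± 0.28, edgeR adjusted p = 0.504), and ACLY, which supplies cytosolic acetyl-CoA, was at 17.3 to 23.7 CPM post-molt and 22.3 to 33.5 CPM pre-molt (-0.46 ± 0.22, adjusted p = 0.468). The groups overlapped in both.

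The biopsies read as muscle, with 6 muscle markers summing to between 156649 and 228203 CPM post-molt and between 168203 and 269831 CPM pre-molt. MYH7 and MYH2 were not analysed here. EdgeR called 0 of the 6, with 1 higher and 3 lower before adjustment (p under 0.05), and DESeq2 called MB higher and ACTA1 lower. Over all genes, 5.20% were higher and 6.22% lower before adjustment. Of genes with a DESeq2 adjusted p, 3.31% were called higher and 3.13% lower. MB and ACTA1 made up most of the sums, and libraries of 1 group differed widely in other markers. TNNT3, the fast-fibre troponin T, was at 82.1 to 392 CPM post-molt, against 4089 and 2857 CPM in pre-molt 5842 and C497 and 40.1 and 45.0 CPM in pre-molt 5572 and 6762. TTN, which codes for titin, was at 25276 CPM in post-molt 9678 and 1630 to 4193 CPM in the other 3 post-molt libraries, against 1152 CPM in pre-molt 5572 and 16474 to 28797 CPM in the other 3 pre-molt libraries. The needle reached the muscle through blubber, and 8 adipocyte markers summed to 35.3 to 140.5 CPM post-molt and 65.3 to 206.7 CPM pre-molt. EdgeR called 0 of the 7 tested, and CIDEC was lower before adjustment (and called lower by DESeq2). LEP was at 0 in each library except post-molt 5572, which had 2 counts. Of 5 fibroblast markers edgeR called 0, with 3 lower before adjustment, DESeq2 called LUM lower, and their sum was 130 to 344 CPM post-molt and 326 to 1073 CPM pre-molt. The 5 endothelial markers summed to 351 to 393 CPM post-molt and 375 to 487 CPM pre-molt, and the 4 macrophage markers to 12.4 to 29.5 CPM post-molt and 9.77 to 36.2 CPM pre-molt. The 3 keratinocyte markers summed to at most 2.19 CPM post-molt and 0.148 CPM pre-molt. In bulk tissue, fewer cells of a type and less RNA per cell cannot be told apart, and the part of these markers, muscle genes included, in the values of SREBF1 or OSBPL10 was not tested.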

How the data were processed

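The authors deposited raw counts per gene, as STAR gives them after aligning paired NES reads to the genome of the Hawaiian monk seal. The sample records also name bcl2fastq 2.20, R 3.4.3 and DESeq2 1.18.1. Reads of 1 species were counted on the genes of another, and the strand setting is not given in the sources used here, so overlapping antisense genes cannot be told apart. The authors kept the 4 libraries of each condition with most unique reads, because RNA of low quality had given poor sequencing in some samples.

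Of 24349 entries, 8 carry no gene name (0.0145 to 0.0187% of a library's counts) and were left out. Genes passed filterByExpr of edgeR 4.0.16 in R 4.3.3 (minimum count 10, minimum total 15). Counts were tested with TMM factors and edgeR's quasi-likelihood test, threshold 0.05, unpaired as in the study; the SE comes from the fit. DESeq2 1.42.0, limma-voom (limma 3.58.1), other scalings and filters, and left-out libraries were alternatives. The 2 ratios used exact permutation over 70 divisions. The scripts were tested on simulated data. Libraries are separate biopsies, so p-values reflect differences between seals and sampling together.

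The members and lists were chosen with earlier results of these data known. The study had already named OSBPL10 among its upregulated genes, so its values here are not independent of that choice. Besides the members, the genes named were the 3 with smallest p of each of 5 sterol and lipid lists, and the 5 most like OSBPL10. Some list genes are counted but not reported here by name.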

Additional observations from a re-analysis of the deposited data

Results flagged for a closer look

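Among 58 groups of 4 libraries checked (each named gene and ratio, post-molt and pre-molt), 2 held a library far from the other 3, and chance flags about 1 group in 20. OSBPL10 was at 11.3 CPM in post-molt 4448, against 7.25 to 7.91 CPM in the other 3 post-molt libraries, and its gap to the nearest was 0.838 of the whole range. Without that library its edgeR log2 fold change was 0.90 (adjusted p = 0.520), within alternatives whose adjusted p ran between 0.0299 and 0.520. OSBPL8 was at 13.9 CPM in pre-molt 5572, against 26.0 to 27.6 CPM in the other 3 pre-molt libraries, with a gap of 0.882 of the range. Without that library its log2 fold change was 0.48 (edgeR adjusted p = 0.512, 0.172 to 0.667 over its alternatives).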

How the results depend on the processing

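Of the 7 sterol genes, DESeq2 called 1 higher (OSBPL10, 1.08), and the other edgeR and limma-voom settings called 0 in either direction. In DESeq2 fits that each dropped 1 library, run for OSBPL10 and chosen after seeing the data, its call held only without pre-molt C497 (1.18). SREBF1 (0.60 to 0.94), OSBPL10 (0.90 to 1.18), OSBPL1A (0.07 to 0.41), SREBF2 (-0.44 to -0.12) and HMGCS1 (-0.62 to -0.29) kept the sign of their log2 fold change under each setting run. SQLE turned to 0.16 without post-molt 9678, to 0.09 without pre-molt 5842 and to 0.50 without both, and the FDFT1 fold change turned to -0.083 without pre-molt 5842 and to -0.11 without both; these 2 libraries have the lowest share of uniquely mapped reads of their group in the study's mapping summary. The ratio of SREBF1 to SREBF2 differed by 0.71 to 1.22 and that of OSBPL10 to OSBPL1A by 0.70 to 0.92 with 1 library left out, each with an exact permutation p of 0.0571, the smallest that 4 against 3 can give. Adding 1 count changed neither call. Over all genes, edgeR called 31 higher and 19 lower, against 128 and 97 with no filter, 335 and 317 by DESeq2, 55 and 39 by limma-voom, 43 and 31 by robust edgeR, 7 to 28 and 2 to 21 with 1 library left out, 3 and 2 without seal 5572, and 0 and 0 without 5842 and 9678. The cause of these shifts was not tested. The median log2 fold change of all genes was -0.044 in the main fit. Under the other scalings it ran between -0.058 (upper-quartile factors) and -0.036 (DESeq2). No paired analysis was possible because only 1 seal has a library at both times.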
